A study of Rattus norvegicus with 43 samples.

Results

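Foreskins of rat pups on postnatal day 5 (PND5) were compared between a higher and a lower dose of dibutyl phthalate (DBP), a plasticizer, given to their mothers. The members were the 14 PND5 arrays whose titles name DBP500 or DBP100, 7 litters of each, out of 43 arrays in the series. The dams were Sprague Dawley rats dosed by gavage with 100 or 500 mg/kg/day on gestational days 16 to 20, so pups of both groups were sampled after dosing had ended. The 7 PND5 control litters came from dams given corn oil over the same days and stand beside the doses here. Some values of foreskins taken on gestational day 20 are also given. There the doses belong to 2 separate studies, each with its own corn oil controls, and the smallest group held 5 litters. Each array held RNA of 2 foreskins pooled per litter, hybridised to the Illumina RatRef-12 beadchip. Litters were the replicates, and which pup of a litter gave a value is not resolved.

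Phthalate diesters such as DBP are split in the body to monoesters, which lower testosterone production by the fetal rat testis, and the external genitalia are a target of that hormone. The foreskin is skin: a stratified epidermis with hair follicles and sebaceous glands over a collagen-rich dermis that carries muscle, vessels and nerves. Hair shafts are built from hair keratins and keratin-associated proteins, the inner root sheath around the shaft from keratins of its own, and the epidermal surface from further keratins and cornification enzymes.

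The labelled tissue was checked on its markers. The basal keratinocyte genes Krt14 and Krt15, the suprabasal keratins Krt1 and Krt10, the dermal genes Col1a1 and Dcn and the smooth muscle gene Tagln were each detected on 14 of 14 arrays. Ptprc, a leukocyte gene, was detected on 12, the adipocyte hormone Adipoq on 11 and the endothelial gene Cdh5 on 1, while 9 of 11 tested endothelial genes were detected on all 14. Fewer cells of a type and less RNA per cell cannot be told apart in such bulk RNA. The 14 arrays had medians of 125.4 to 160.3 units of intensity and called 10537 to 12078 of 22523 probes present. No pair of arrays held identical values. Replicates 1 to 4 of each group had a highest signal of 15335 to 17569 units and replicates 5 to 7 one of 21458 to 29459 units, so that each dose had 4 arrays in the first array set and 3 in the second.

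One litter stood apart before any comparison of doses. On the array of DBP100 replicate 5, 99 probes lay more than 1 log2 unit above all of the other 20 PND5 arrays, against 0 to 10 probes on each of those 20. Genes of acute inflammation led them. Ccl2, a chemokine that attracts monocytes, stood at 13.27 log2 units in that litter and between 5.70 and 7.33 in the other 20. Cxcl1, a chemokine for neutrophils, stood at 12.57 against 5.48 to 6.65. The cytokine Il1b stood at 11.51 against 6.75 to 8.70, and the neutrophil calcium-binding protein S100a8 at 11.70 against 7.83 to 9.33. Interferon-induced genes stood high on the same array. Ifit1 stood at 10.53 in this litter, while 1 of the other 20 arrays detected it at all, and Irf1 stood at 11.66 against 8.62 to 9.67.

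Over the list of acute inflammation genes, 10 of 12 tested members had their highest PND5 value in DBP100 replicate 5, and over antigen presentation and interferon genes 20 of 24 did. The mean level of the first list was 10.45 log2 units there, against 7.45 to 7.84 in the other 6 DBP100 litters and 7.50 to 7.80 in the DBP500 litters. Leukocyte and macrophage genes were also highest in it, at a mean of 8.94 log2 units, although the macrophage complement genes C1qa, C1qb and C1qc stayed inside the range of the other 20 arrays. Defb4, an epithelial defensin, did not share the pattern, at 10.04 log2 units against 9.91 to 12.18. Whether these genes were high in both pooled pups or in 1 cannot be told apart. Values without this litter are given beside many of the results below, and results given without them may also have moved.

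**Figure D1:**
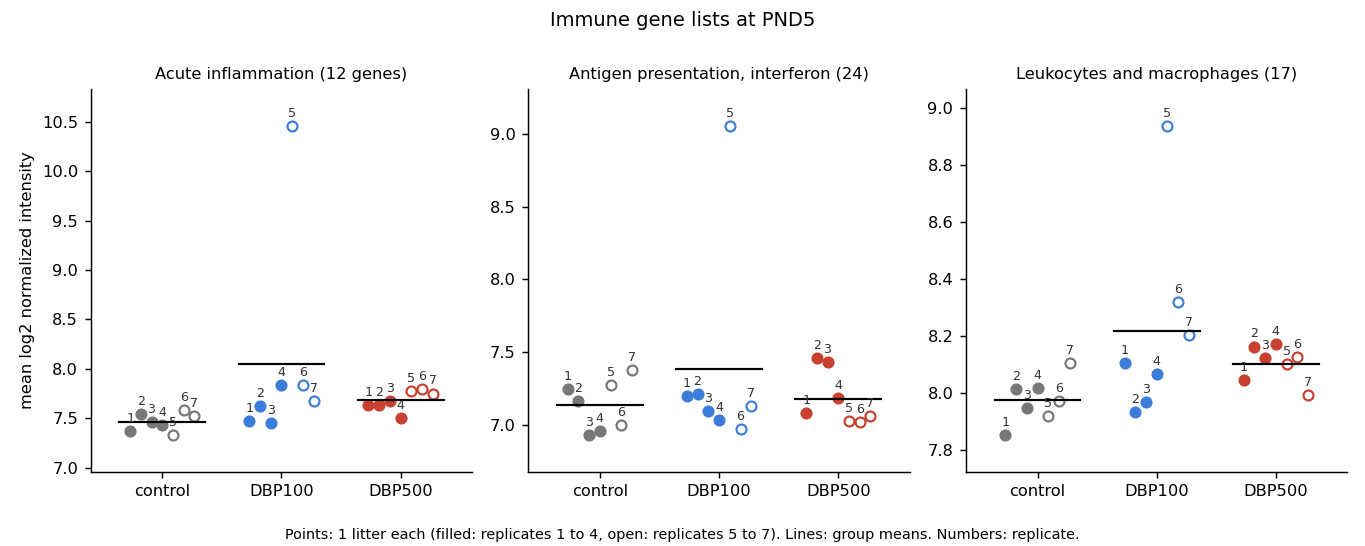
Mean log2 normalized intensity of 3 immune gene lists in each PND5 litter (vertical axis) by group (horizontal axis), with points as litters, numbers as replicates and lines as group means. DBP100 replicate 5 stands at 10.45 for acute inflammation, above the 7.33 to 7.84 of all other litters.

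Few transcripts separated the doses. With limma over all 43 arrays and Benjamini-Hochberg adjustment, 7 of 13577 tested probes (0.0516%) passed at an adjusted p under 0.05, 2 higher (0.0147%) and 5 lower (0.0368%) in DBP500 than in DBP100 litters. At an unadjusted p under 0.05 there were 1226 probes (9.03%), 654 higher (4.82%) and 572 lower (4.21%). The median difference over all probes was 0.0088 on the log2 scale. Once DBP100 replicate 5 was left out, 0 probes passed, the smallest adjusted p was 0.0972, and 1075 probes had an unadjusted p under 0.05. In the same fit 498 probes (3.67%) passed between DBP500 and control and 11 (0.0810%) between DBP100 and control. Those comparisons share arrays with the direct one, so their values are set side by side below and not counted as support.

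Of the 7 passing probes 3 carried a gene name. Prkci, the atypical protein kinase C iota of epithelial cell polarity, had values of 5.10, 5.74 and 6.05 log2 units (lowest, median and highest) in DBP500 litters and of 5.98, 6.43 and 6.92 in DBP100 litters. Among the DBP500 litters 6 of 7 lay below every DBP100 litter. Prkci fell by 0.71 ± 0.13 on the log2 scale (SE, n = 7 and 7, limma adjusted p = 0.0336), and its difference from control was -0.74 at the high dose and -0.03 at the low dose. The probe was detected on 4 of 7 DBP500 and 7 of 7 DBP100 arrays, so the high-dose values lay near background. With DBP100 replicate 5 left out, the difference was -0.61 and the limma adjusted p 0.131.

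E2f1, a transcription factor that drives entry into DNA replication, rose. Its values were 6.98, 7.28 and 7.75 log2 units (lowest, median and highest) in DBP500 litters and 6.05, 6.89 and 7.21 in DBP100 litters. It was detected on all 14 arrays, and 5 of 7 DBP500 litters lay above every DBP100 litter. The difference was 0.59 ± 0.12 on the log2 scale, a 1.51-fold higher level (SE, n = 7 and 7, limma adjusted p = 0.0380). Against control E2f1 stood 0.45 higher at the high dose and differed by -0.14 at the low dose. Without DBP100 replicate 5 the difference was 0.57 and the limma adjusted p 0.136.

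Cpm, carboxypeptidase M, a membrane enzyme that trims basic residues from peptide ends, fell by 0.93 ± 0.19 on the log2 scale (SE, n = 7 and 7, limma adjusted p = 0.0380). Its lowest, median and highest values were 4.97, 5.54 and 6.18 log2 units with the high dose and 5.86, 6.30 and 7.27 with the low dose. Against control the doses lay on opposite sides, at -0.39 and 0.54. It was detected on 4 of 7 DBP500 arrays. The difference without DBP100 replicate 5 was -0.83 (limma adjusted p = 0.161).

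The 4 other passing probes carry no gene name in the tables used here. ILMN_1349567 fell by 0.69, ILMN_1375342 by 0.75 and ILMN_1365572 by 0.70 on the log2 scale, and ILMN_1369945 rose by 0.84 (limma adjusted p = 0.0336 for the first and 0.0380 for the others). The calls of the 7 probes depended on the analysis. Each passed in 2 to 5 of the 15 other settings tried, and 0 probes passed in 9 of these, among them the PND5 arrays fitted alone, the array set as a block and the authors' processed values (limma, 689 to 1248 probes at an unadjusted p under 0.05). They passed in 6 to 10 of 14 analyses that left out 1 array, and 0 passed without DBP500 replicate 4, DBP100 replicate 4 or DBP100 replicate 5. The sign of each difference was the same in all 29 of these analyses. They reuse the arrays on which the probes were picked, so the shared sign is no independent evidence. In the first array set Prkci differed by -0.83, E2f1 by 0.83 and Cpm by -1.13. In the second these 3 differed by -0.55, 0.28 and -0.66. The unnamed ILMN_1349567, ILMN_1375342, ILMN_1365572 and ILMN_1369945 differed by -0.16, -0.36, -0.30 and 0.36 in the second set. In the first set ILMN_1349567 differed by -1.09, ILMN_1375342 by -1.04 and ILMN_1365572 by -0.99, and the rise of ILMN_1369945 was larger there too. All 7 probes passed in the first set and 0 of the 7 in the second. At the end of dosing, on gestational day 20, the corresponding difference between the doses was -0.14 ± 0.22 for Prkci, -0.13 ± 0.19 for E2f1 and 0.31 ± 0.31 for Cpm on the log2 scale (SE), each against the controls of its own study, and none of these 3 passed.

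**Figure D2:**
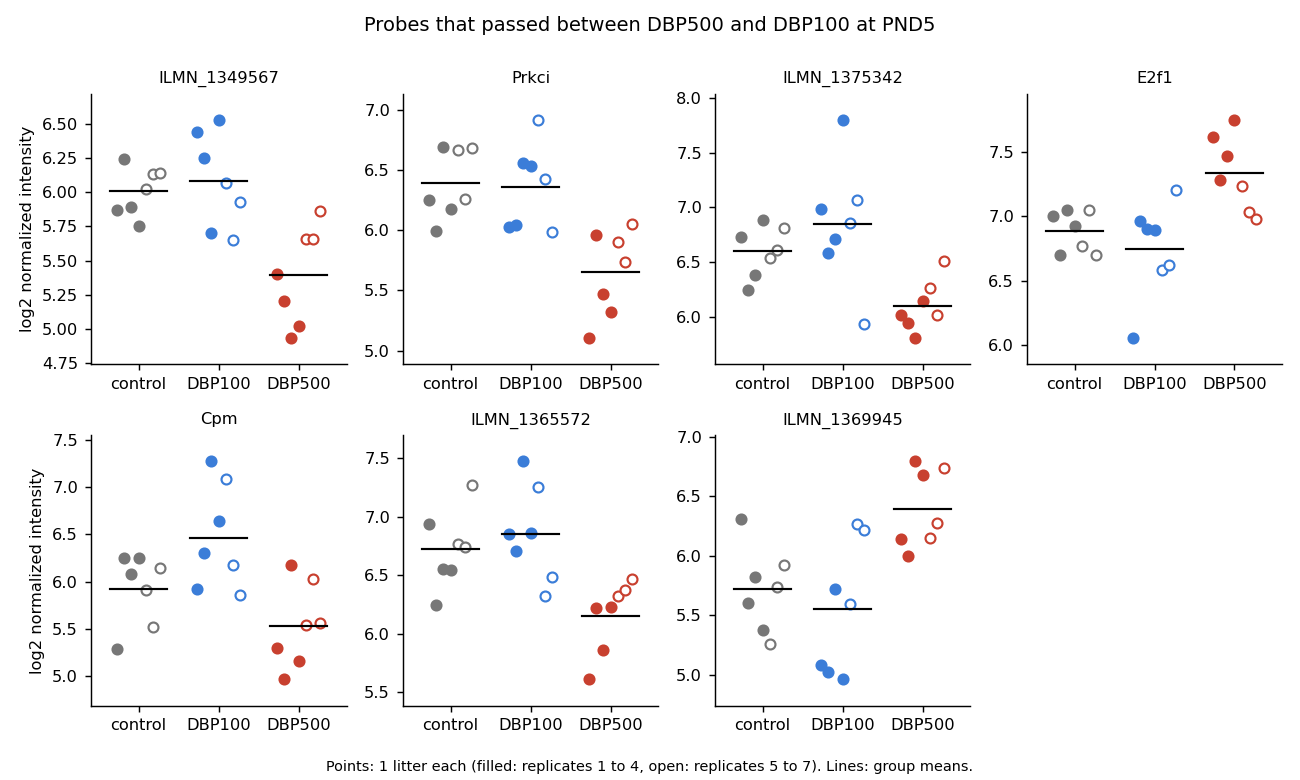
Log2 normalized intensity (vertical axis) of the 7 probes that passed, by group (horizontal axis), with points as litters, filled for replicates 1 to 4 and open for replicates 5 to 7, and lines as group means. In every panel the high-dose mean lies on one side of both other means, and single litters of the 2 doses overlap.

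The 13 named genes of next smallest p had adjusted p-values of 0.0551 to 0.202, 10 of them lower and 3 higher in DBP500 litters. Just outside the threshold were Krt80, a keratin of differentiating epithelium, with a difference of -0.77 ± 0.17 on the log2 scale (SE, n = 7 and 7, limma adjusted p = 0.0551), and the serine protease Tmprss11f, with -0.71 ± 0.15 (SE, limma adjusted p = 0.0551). A second Tmprss11f probe differed by 0.09 but was detected on 1 of the 14 arrays. Casp14, the caspase of cornification, had values of 7.52, 8.23 and 9.48 log2 units in DBP500 litters (lowest, median and highest) and of 8.41, 9.22 and 9.54 in DBP100 litters. For Casp14, 6 of 7 high-dose litters lay below all low-dose litters and replicate 1 lay among them (difference -0.75 ± 0.18, SE, limma adjusted p = 0.109). Its differences from control were -0.95 and -0.21.

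The 3 genes of the higher side were Suclg1, a subunit of the mitochondrial succinyl-CoA ligase, Mre11, a nuclease of double-strand break repair, and Cdc25b, a phosphatase that activates cell cycle kinases. Suclg1 differed by 0.39, Mre11 by 0.56 and Cdc25b by 0.66 on the log2 scale. By array set, first and second, Suclg1 differed by 0.61 and 0.10, Mre11 by 0.90 and 0.12 and Cdc25b by 0.89 and 0.34. On the lower side stood the receptor Notch2 (-0.61), the zinc transporter Slc39a10 (-0.70), the vesicle-traffic GTPase Rab10 (-0.39), the AP-1 repressor Jdp2 (-0.90), the adaptor Sh3bp2 (-0.65), Bsdc1 (-0.77) and the RNA-binding protein Rbpms2 (-0.64). In the first and second array sets Notch2 differed by -0.90 and -0.22, Slc39a10 by -0.84 and -0.52, and Rab10 by -0.24 and -0.60. Jdp2 differed by -1.15 and -0.57, Sh3bp2 by -0.73 and -0.54, Bsdc1 by -1.10 and -0.32, and Rbpms2 by -1.06 and -0.07. High-dose means in the first set were 5.41 log2 units for Notch2, 5.13 for Bsdc1 and 5.15 for Rbpms2, as near background as Prkci at 5.46. For Rab10, 6 of 7 high-dose litters lay between 8.93 and 9.52 log2 units and below the lowest low-dose litter at 9.61, while replicate 1 stood at 9.70.

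For 4 probes (0.0295%) the 7 litters of one dose did not overlap the 7 of the other, all 4 lower with the high dose, and 0 probes (0.00%) separated in the other direction. They were picked here after their values were seen, and none passed. How many probes would separate so between groups that do not differ was not tested, so the count is a description only. Narf, Nt5dc2, Poglut1 (the enzyme that adds O-glucose to Notch receptors) and the unnamed ILMN_1373293 differed by -0.45, -0.28, -0.62 and -0.51 on the log2 scale, with limma adjusted p-values of 0.308, 0.308, 0.358 and 0.308. For Nt5dc2 the high-dose litters spanned 9.53 to 9.88 log2 units and the low-dose litters 9.91 to 10.24, while the control mean of 9.74 lay with the high dose.

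Genes known from earlier results of these data to separate DBP500 from control were then read in the direct comparison. Of these 22 genes 0 passed (limma, smallest adjusted p = 0.109, for Casp14) and 9 had an unadjusted p under 0.05, 2 higher and 7 lower, where 4.82% and 4.21% of all probes did. In all, 10 had a positive and 12 a negative difference. The genes had been chosen on DBP500 against control, which uses the same DBP500 arrays, so these counts are no independent evidence. Several of the genes known as raised stood at a similar distance from control at both doses. Rnase12, an RNase A family member, stood 1.34 above control at the high and 1.31 at the low dose on the log2 scale, and the difference between doses was 0.04 (95% interval -0.57 to 0.65). Sectm1b stood 1.05 and 0.81 above control, Car2, a carbonic anhydrase, 0.90 and 0.73, and Allc, allantoicase, 1.29 and 0.97. Leaving out DBP100 replicate 5 turned the dose difference of Rnase12 to -0.05 and that of Car2 from 0.18 to -0.09, and moved that of Allc from 0.33 to 0.17. The 95% interval of the dose difference of Allc ran from -0.26 to 0.91, so that the spread between 7 litters a group left room for differences of that size.

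Ada, the adenosine deaminase, showed where spread limits the comparison. Its values were 10.57, 10.82 and 11.18 log2 units in DBP500 litters (lowest, median and highest), 8.89, 10.85 and 11.25 in DBP100 litters and 8.18, 9.80 and 10.59 in controls. The doses overlapped, and DBP100 replicate 5, the litter with the inflammatory genes, was the lowest of them. The difference was 0.42 ± 0.26 (SE, n = 7 and 7, 95% interval -0.12 to 0.95, limma adjusted p = 0.657), and 0.16 without that litter. Nts, the neurotensin precursor, differed by 0.75 ± 0.27 (SE, limma adjusted p = 0.367), with 6 of 7 high-dose and 3 of 7 low-dose arrays above detection. Its difference was 1.47 in the first array set and -0.22 in the second.

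**Figure D3:**
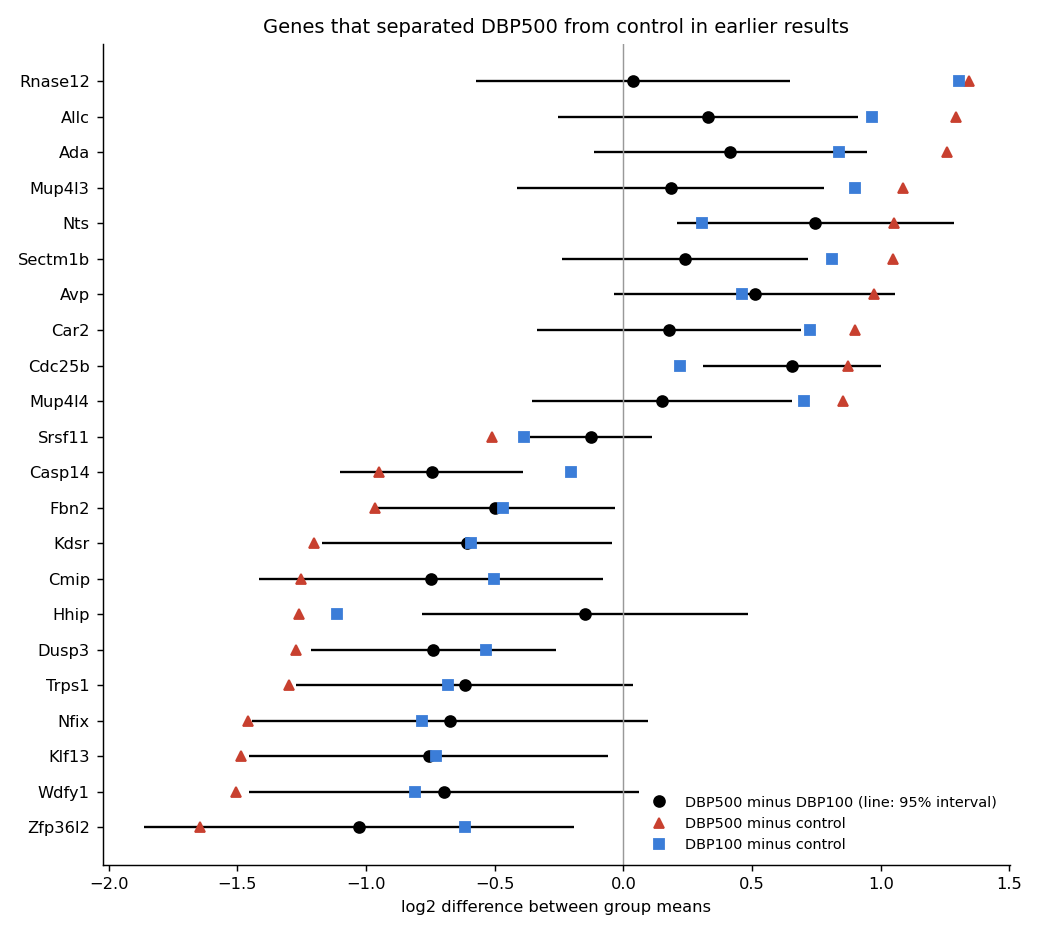
Log2 differences (horizontal axis) for 22 genes (vertical axis) that had separated DBP500 from control in earlier results, with circles for DBP500 minus DBP100 and its 95% interval, triangles for DBP500 minus control and squares for DBP100 minus control. The circle lies near 0 for Rnase12 (0.04) and farthest from it for Zfp36l2 (-1.03).

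Among the genes known as lowered, Nfix split the litters. It encodes a transcription factor of the nuclear factor I family and stood at 7.32 to 8.65 log2 units on 8 of the 21 PND5 arrays and at 9.74 to 10.72 on the other 13, with no array between. The 8 arrays were DBP500 replicates 1, 2, 3 and 4, DBP100 replicates 2, 6 and 7, and control replicate 1. Both doses thus had litters of each kind, 4 of 7 and 3 of 7.

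The same arrays ranked low in the other lowered genes counted here, none of which had such a gap at that place. Their widest gap left 10 arrays below it for Zfp36l2, 7 for Srsf11 and 20 for Hhip. It left 1 for Dusp3 and 2 for each of the other 6. Each of the 8 was among the lowest 8 of 21 in 9 to 11 of 11 genes, and each of the other 13 in 0 to 3 of them. Nfix, which set the 8 arrays, is 1 of the 11 genes, so its place in these counts was fixed in advance. These genes were Zfp36l2, which speeds mRNA decay, the transcription factors Trps1, Klf13 and Nfix, the hedgehog antagonist Hhip, the phosphatase Dusp3, the splicing factor Srsf11, the microfibril protein Fbn2, the sphingolipid enzyme Kdsr, and Wdfy1 and Cmip. The 8 arrays had 10530 to 11776 probes detected and the other 13 had 10738 to 12078, so the ranges overlapped. Median signals overlapped too, at 125.4 to 145.2 and 108.1 to 160.3 units. The genes were chosen with earlier results of these arrays known, so their moving together is a description. Casp14, also among the earlier genes and lower with the high dose, was not part of this count. It differed between doses by -0.61 in the first array set and -0.92 in the second on the log2 scale.

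The 8 arrays were spread unevenly over the array sets. In the first set they made up 4 of 4 DBP500 and 1 of 4 DBP100 arrays, in the second 0 of 3 and 2 of 3. Nfix differed between doses by -1.91 in the first set and 0.97 in the second, Klf13 by -1.78 and 0.62, Hhip by -1.13 and 1.15, and Trps1 by -1.48 and 0.53 on the log2 scale. The difference between the sets did not pass for these 4 genes (limma interaction, adjusted p = 0.307 for each, unadjusted p = 0.0011 to 0.0021). For Hhip the difference over both sets was -0.15, and -0.0455 without DBP100 replicate 5. Over both sets the difference of Nfix was -0.67 ± 0.38 (SE, n = 7 and 7, 95% interval -1.45 to 0.10, limma adjusted p = 0.618). Zfp36l2 had the largest difference of the group, -1.03 ± 0.41 (SE, limma adjusted p = 0.440). Zfp36l2 values were 5.15, 5.87 and 7.28 log2 units in DBP500 litters (lowest, median and highest), 5.68, 7.51 and 7.77 in DBP100 litters and 5.92, 7.72 and 8.37 in controls.

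**Figure D4:**
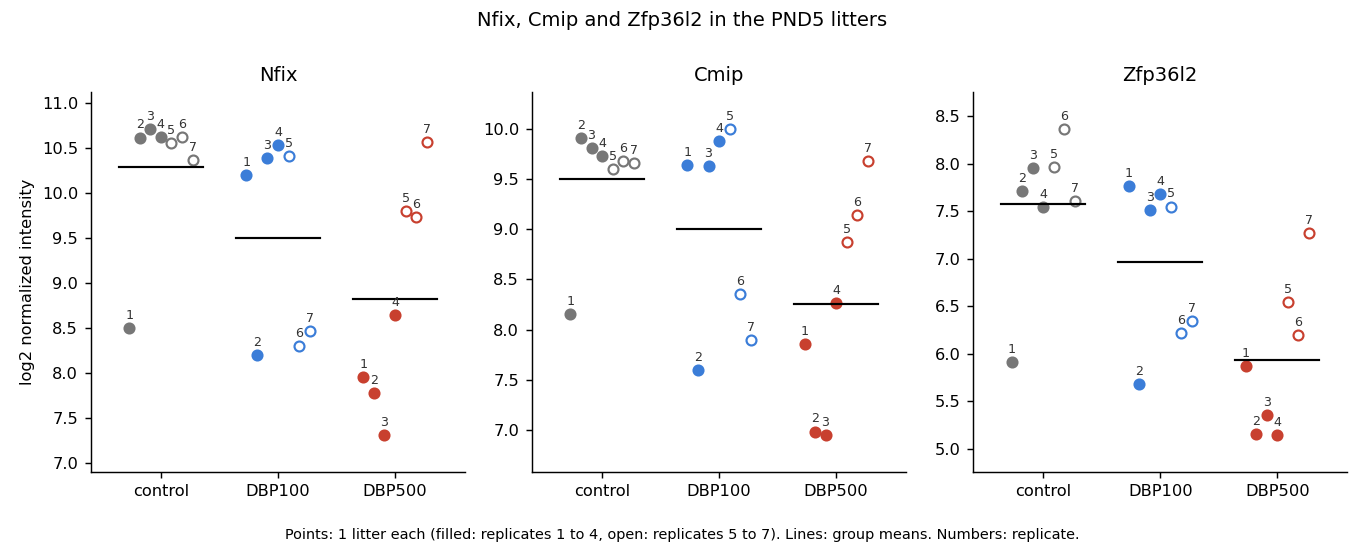
Log2 normalized intensity (vertical axis) of Nfix, Cmip and Zfp36l2 by group (horizontal axis), with points as litters, numbers as replicates and lines as group means. Nfix leaves a gap between 8.65 and 9.74, with 4 DBP500, 3 DBP100 and 1 control litter under it.

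Over all probes the array sets also gave different dose differences. In replicates 1 to 4 alone 381 probes passed, 155 higher and 226 lower with the high dose, and 135 of them (35.4%) had the same sign in replicates 5 to 7, against 45.2% of all tested probes. Between the doses in replicates 5 to 7, 1 probe passed in that fit (635 at an unadjusted p under 0.05). The difference between the sets was itself tested as an interaction in the 14 arrays, and 5 of 13577 probes passed (0.0368%, limma), with 8.79% at an unadjusted p under 0.05. The 2 named ones were Nqo2, a quinone reductase, with a dose difference of 1.11 in the first set and -0.61 in the second, and Mfhas1, with -1.37 and 0.88 on the log2 scale. The labels do not say how replicates 1 to 4 and 5 to 7 differ, and the part of the array sets in single results was not tested beyond these values.

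Among the gene families, keratins of the hair stood lower in DBP500 than in DBP100 litters, though no member passed. Of 10 tested hair shaft keratins 10 had a negative difference, 6 with an unadjusted p under 0.05, where 4.21% of all probes had one in that direction. Their median difference was -0.61 on the log2 scale, against 0.0088 over all probes. The hair keratin lists were drawn up after these values were seen, and their members share a cell type, so the counts carry no test. DBP100 replicate 5 had the highest mean level of the 21 litters, and without it 10 of 10 were negative with a median of -0.48.

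The promoters of the 4 hair shaft keratins that follow are shown because family members moved together. They are RefSeq sequences of rat build GRCr8, 250 bases that end just before the annotated start, read on the gene's own strand, which is the minus strand for each. Capitals mark TATAAA and a site known in human hair keratin promoters as the binding site of HOXC13, TTTATN or TTAATN followed by AA, AG, GA or GG. Both motifs were searched on both strands and overlap where TTTATN is followed by AA with A as the free base. The windows are chr10:85462077-85462326 for Krt33b, chr10:85474502-85474751 for Krt34, chr10:85483301-85483550 for Krt31 and chr7:134433741-134433990 for Krt87.
Krt33b: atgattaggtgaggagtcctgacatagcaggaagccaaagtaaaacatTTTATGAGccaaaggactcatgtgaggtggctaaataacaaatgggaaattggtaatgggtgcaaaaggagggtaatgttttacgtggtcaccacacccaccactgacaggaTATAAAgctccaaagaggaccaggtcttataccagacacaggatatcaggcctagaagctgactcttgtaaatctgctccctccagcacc
Krt34: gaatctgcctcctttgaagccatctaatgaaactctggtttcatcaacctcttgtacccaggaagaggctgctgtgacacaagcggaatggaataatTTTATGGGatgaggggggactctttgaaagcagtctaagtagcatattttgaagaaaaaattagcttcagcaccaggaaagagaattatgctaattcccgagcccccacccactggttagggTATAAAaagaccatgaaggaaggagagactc
Krt31: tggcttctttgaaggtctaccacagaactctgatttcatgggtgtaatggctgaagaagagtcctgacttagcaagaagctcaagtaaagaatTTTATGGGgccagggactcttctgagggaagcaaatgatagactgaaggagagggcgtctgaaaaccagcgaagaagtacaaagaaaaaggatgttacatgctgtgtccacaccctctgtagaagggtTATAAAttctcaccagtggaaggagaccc
Krt87: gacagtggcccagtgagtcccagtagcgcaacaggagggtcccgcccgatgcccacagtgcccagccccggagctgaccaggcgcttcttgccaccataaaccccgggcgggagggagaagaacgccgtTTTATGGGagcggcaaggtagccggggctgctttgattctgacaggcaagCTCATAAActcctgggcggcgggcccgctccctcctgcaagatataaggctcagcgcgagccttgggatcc

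The HOXC13-type motif stood in 5 of the 6 hair shaft keratin promoters that the RefSeq table holds and in 17.8% of all 33469 promoters of that length. TATAAA stood in 4 of the 6 and in 12.9% of all promoters. Other keratin groups held both motifs too. TATAAA stood in 5 of 5 inner root sheath, 3 of 4 keratin-associated and 6 of 10 other keratin promoters, and the HOXC13-type motif in 3, 2 and 4 of these. In Krt34 and Krt31 the TATAAA lay 31 and 29 bases before the start, and in Krt33b 90 bases before it. The Krt34, Krt31 and Krt87 windows each hold the same 8 letters TTTATGGG. The letters describe the windows only, and no binding was measured.

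Krt33b, a type I keratin of the hair cortex, had the largest difference of the family. Its values were 5.57, 6.65 and 7.93 log2 units in DBP500 litters (lowest, median and highest), 6.35, 7.54 and 8.92 in DBP100 litters and 6.35, 6.94 and 7.54 in controls. The groups overlapped, with the high-dose litter 3 among the upper low-dose values. The difference was -0.95 ± 0.26 (SE, n = 7 and 7, 95% interval -1.47 to -0.43, limma adjusted p = 0.213). Leaving out DBP100 replicate 5 made it -0.74 (limma adjusted p = 0.448). Krt33b stood 0.67 above control at the low dose and differed from it by -0.28 at the high dose.

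Krt83, a type II hair keratin, had values of 6.38, 7.02 and 7.79 log2 units with the high dose and of 6.84, 7.74 and 8.85 with the low dose (lowest, median and highest). Its difference was -0.75 ± 0.20 (SE, limma adjusted p = 0.213). Krt34 differed by -0.84, Krt33a by -0.74, Krt81 by -0.64 and Krt87 by -0.57. Krt31 (-0.49), Krt86 (-0.36), Krt36 (-0.25) and Krt35 (-0.23) had an unadjusted p above 0.05. Without the litter of high inflammatory genes Krt31 stood at -0.30, Krt86 at -0.18 and Krt35 at -0.11. Krt86 was detected on 1 high-dose and 3 low-dose arrays, and Krt36 on 2 and 3.

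The mean level of the 10 shaft keratins lay between 6.12 and 7.55 log2 units in DBP500 litters, between 6.63 and 8.25 in DBP100 litters and between 6.21 and 7.34 in controls. Litters of the 3 groups therefore overlapped. Against control the median difference was 0.46 at the low dose and -0.07 at the high dose. The median between doses was -0.47 in the first array set and -0.67 in the second. It kept its sign in all 29 other analyses (-0.74 to -0.36), which reuse the same arrays.

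Other hair genes had the same sign. Of 5 inner root sheath keratins 5 were negative, with a median of -0.27, led by Krt26 at -0.66 ± 0.18 (SE, limma adjusted p = 0.213). Leaving out DBP100 replicate 5 gave a median of -0.20, and -0.49 for Krt26. Of 4 tested keratin-associated proteins of the hair shaft 4 were negative. Among them Krtap15-1 (-0.73, and -0.53 without that litter) was detected on 2 of 7 high-dose and 5 of 7 low-dose arrays. The wider list of hair follicle and sebaceous genes shares keratins with the groups above, among them Krt33b, Krt34, Krt35 and Krt27. Its counts are therefore not separate. In it 12 of 12 were negative with a median of -0.31. Of these, 4 had an unadjusted p under 0.05, where 4.21% of all probes were lower at that level. Without DBP100 replicate 5 the median was -0.23, with 12 of 12 negative and 3 under that level. These 4 were Krt33b, Krt34, the follicle transcription factor Msx2 (-0.33) and Elovl3, a fatty acid elongase of the sebaceous gland (-0.60). Of 19 other tested keratins 8 were positive and 11 negative, with a median of -0.05 (-0.01 without DBP100 replicate 5). Markers of basal keratinocytes had a median of 0.04 and those of differentiated epidermis one of 0.01 on the log2 scale.

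**Figure D5:**
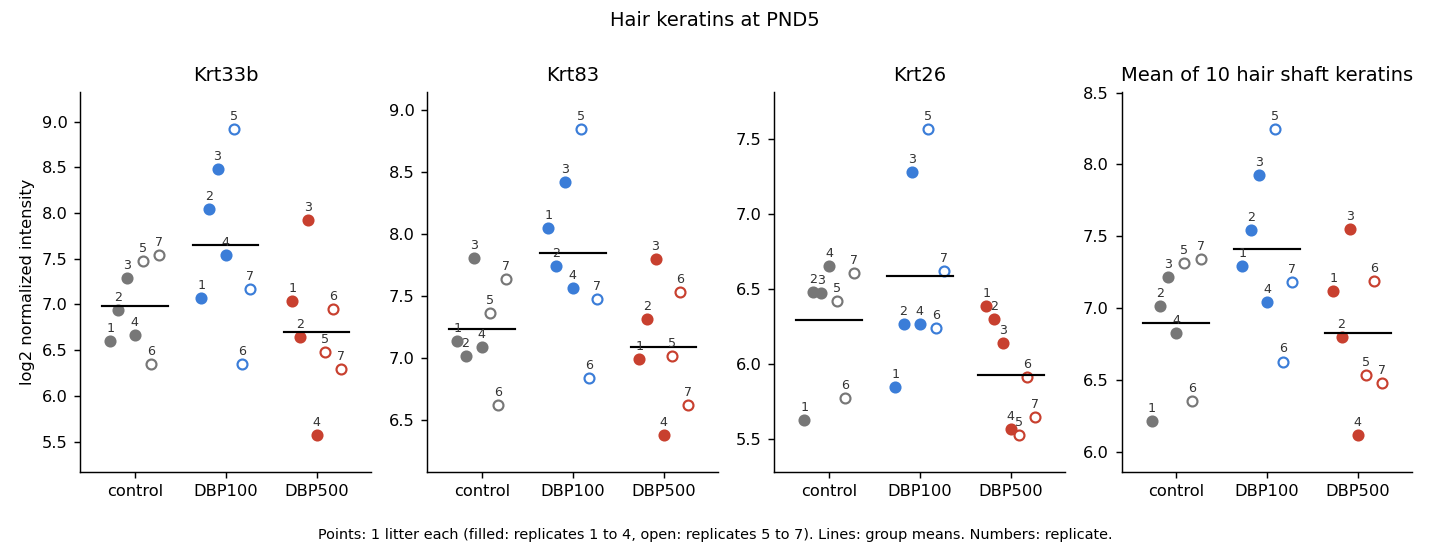
Log2 normalized intensity (vertical axis) of Krt33b, Krt83 and Krt26 and the mean over 10 hair shaft keratins, by group (horizontal axis), with points as litters, numbers as replicates and lines as group means. The low-dose mean is the highest of the 3 in each panel, and DBP100 replicate 5 is the highest litter, at 8.25 for the mean of the family.

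The medians of both inflammation and interferon lists rested on 1 litter. Acute inflammation genes were negative in 11 of 12 cases with a median of -0.29 on the log2 scale, and antigen presentation and interferon genes in 19 of 24 with a median of -0.28. The medians without DBP100 replicate 5 were 0.03 and 0.005, with 5 of 12 and 12 of 24 negative. Immediate-early genes were negative in 12 of 13 cases, led by the AP-1 subunit Fos (-0.77 ± 0.27, SE, limma adjusted p = 0.338), and without that litter in 9 of 13. The class I histocompatibility gene RT1-A1 had a positive difference. It lay between 5.02 and 6.44 log2 units in 6 DBP100 litters and at 9.74 in replicate 4, while DBP500 litters ranged from 5.42 to 9.33 and controls from 5.70 to 9.21 (difference 1.69 ± 0.62, SE, limma adjusted p = 0.381). RT1-A1 differed by 1.73 without DBP100 replicate 5, the macrophage receptor Cd163 by -0.51 with it and -0.49 without it, and the interleukin-1 receptor antagonist Il1rn by -0.74 and -0.51.

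Metabolic and stress lists differed in how many members were positive, and no member passed. Over all probes 7095 of 13577 were positive. Of 20 fatty acid oxidation genes and targets of the fatty acid receptor PPAR-alpha 18 were positive, with a median of 0.09 on the log2 scale. Cpt1a, the gatekeeper of mitochondrial fatty acid import, was the one with an unadjusted p under 0.05 (0.31 ± 0.13, SE, limma adjusted p = 0.479). Over all probes 4.82% were higher at that level. Cpt1a differed by 0.05 in the first array set and 0.65 in the second. Leaving out DBP100 replicate 5 gave 14 of 20 positive and a median of 0.04. Then 2 other members were under that level, and Cpt1a (0.25) was not. Of 21 genes of the amino acid shortage and ER stress response 15 were positive with a median of 0.14, and 15 were positive without DBP100 replicate 5. The cationic amino acid transporter Slc7a1 differed by 0.45 ± 0.13 (SE, limma adjusted p = 0.269), with 5 of 7 high-dose litters above all low-dose litters. Herpud1, a protein of ER-associated degradation, differed by 0.34 ± 0.11 (SE, limma adjusted p = 0.307), with 6 of 7. Other lists were more even, with 11 of 19 positive for xenobiotic metabolism, 9 of 18 for lipogenesis and cholesterol synthesis, 8 of 14 for heat shock proteins and 6 of 13 for purine breakdown.

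No member of any of the 36 gene lists passed between the doses (limma), and most lists were centred near 0. The medians were 0.005 for cell cycle and DNA replication (30 genes), 0.003 for cytosolic ribosomal proteins (50) and 0.009 for Wnt signalling (24). Hedgehog signalling had a median of -0.03 (7 genes) and collagen matrix one of -0.04 (21). Without DBP100 replicate 5 these 5 medians were -0.0064, -0.0076, 0.0071, -0.015 and -0.0082. Among steroid receptors and steroid-converting enzymes 5 of 14 were positive (median -0.02, and -0.049 without that litter). The mineralocorticoid receptor Nr3c2 stood at 0.48 ± 0.14 (SE, limma adjusted p = 0.261), detected on 7 of 7 high-dose and 3 of 7 low-dose arrays. Nr3c2 differed by 0.78 in the first array set and 0.09 in the second. Adipocyte genes had a median of -0.14, with the hormone Adipoq at -0.79 ± 0.31 (SE, limma adjusted p = 0.432), detected on 4 of 7 high-dose and 7 of 7 low-dose arrays. Without DBP100 replicate 5 the adipocyte median was -0.08 and Adipoq stood at -0.52. Rxra, the shared partner of nuclear receptors, differed by -0.56 ± 0.17 (SE, limma adjusted p = 0.300). Dkk1, a secreted Wnt inhibitor, differed by 0.48 ± 0.16 (SE, limma adjusted p = 0.323). With DBP100 replicate 5 left out, Rxra stood at -0.52 and Dkk1 at 0.36.

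The dose difference at PND5 was set against that on gestational day 20 by a contrast of contrasts in the same fit, which uses other litters. There 18 of 13577 probes (0.133%) passed at the end of dosing, and 0 passed for the change of the dose difference between the ages (0.00%, with 1675 or 12.3% at an unadjusted p under 0.05, limma). For the hair keratin Krt83 the gestational difference was -0.03 ± 0.32 and for Casp14 0.35 ± 0.28 on the log2 scale (SE), while for Cdc25b it was 0.48 ± 0.27. For the sebaceous gene Elovl3, at -0.60 on PND5, it was 1.34 ± 0.39 (SE, limma adjusted p = 0.174). The change of its dose difference between the ages was -1.94 (limma adjusted p = 0.079).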

How the data were processed

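Signals of 43 arrays, 1 per litter, were analysed. Per the file headers, the deposited non-normalized table gave 22523 probes by array, with intensity beside detection p-value. The other deposited table, used as an alternative, gave intensity as processed by the authors, whose sorted values over the PND5 arrays lay within 0.141% of each other. The submitters' processing notes name limma and give no version. Groups came from the sample titles.

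Values were computed with limma 3.58.1 in R 4.3.3 from the non-normalized signals. Background was modelled array by array through the detection p-values (function nec, offset 16), the 43 arrays were quantile-normalized together, and log2 was taken. A probe was tested where its detection p lay under 0.05 on at least 5 arrays, which kept 13577 (60.3%). Means of 7 groups were fitted with lmFit and eBayes, the contrast of the doses at PND5 was read two-sided, and p-values were adjusted by Benjamini-Hochberg over all tested probes at a threshold of 0.05. A probe near background understates a fold. The number of arrays limits the precision.

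Of the probes 13793 carried 1 gene symbol in the table used here, RefSeq's rat gene table held 13757 of these symbols, and 4 were updated through it. A gene in a list is given by its tested probe of highest mean. Genes were named by rule: passing probes, the genes of smallest p up to 20 in all, 22 genes of earlier results, and up to 2 members of smallest p in each of 36 lists. The text gives a subset of the last. Members and lists were chosen with earlier results of these data known. The hair shaft, inner root sheath, keratin-associated and other keratin lists, the genes described for DBP100 replicate 5, the non-overlapping probes and the split on Nfix were chosen after values were seen.

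Replicate numbers are shared between groups in the labels. Deviations of same-numbered arrays from their group means correlated at r = -0.268 to 0.107, with 1 of 7 over 0.1, so the numbers were not taken as pairs. The analysis was tested on simulated data. Alternatives covered normalization, background, filter, arrays fitted, blocks, weights and each of the 14 arrays left out. Nothing in the labels says how many pups or foreskins a litter had beyond the pooled pair.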

Additional observations from a re-analysis of the deposited data

Results flagged for a closer look

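Single litters lay far from the rest of their group in 19 of 249 groups of values checked (7.63%). Far was set by the gap to the next litter as a share of the group's range (Dixon ratio). The share that this rule flags where no litter differs was not tested. Control replicate 1 was the far sample in 7 of them, low in Zfp36l2 (5.92), Trps1 (7.43), Nfix (8.50), Fbn2 (9.46), Cmip (8.15), Klf9 (7.69) and Krt35 (5.77 log2 units). Zfp36l2, Trps1, Nfix, Fbn2 and Cmip are among the lowered genes that ranked low on the same arrays above, so these flags are not separate. DBP500 replicate 3 was far for Notch2 (4.99), Fos (5.22), Cox4i1 (13.47) and Krt28 (10.59), and DBP500 replicate 2 for Nr3c2 (6.56). Among DBP100 litters the far values were RT1-A1 in replicate 4 (9.74), Nts (7.09) and Dcn (13.79) in replicate 6 and Krt36 in replicate 2 (6.88). The remaining control values were Rbpms2 in replicate 4 (5.24), Avp in replicate 6 (6.50) and RT1-A1 in replicate 7 (5.70).

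The dose difference itself differed between the array sets, by the test of the interaction, for 5 probes. Set 2 minus set 1 was -1.72 for Nqo2, 2.24 for Mfhas1, 2.27 for ILMN_1361317, 1.46 for ILMN_1358452 and 2.24 for ILMN_1366618 on the log2 scale.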

How the results depend on the processing

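The count of 7 passing probes changed under most alternatives. It was 1 with a median shift in place of quantile normalization and 2 with no detection filter. It was 0 with cyclic loess, with no background correction, with the authors' processed values, with the 21 PND5 arrays or the 14 arrays alone, with the replicate block, with the array set as a block, with array weights and with trend and robust moderation (limma, 689 to 1248 probes at an unadjusted p under 0.05). It was 381 in array set 1 and 1 in array set 2, and 10 with offset 50 and 9 with detection required on 7 of the 14 arrays. Leaving out 1 array gave 0 to 14 passing probes: 0 without DBP500 replicate 4 or DBP100 replicates 4 or 5, 1 without DBP500 replicate 3, 12 without DBP100 replicate 2, and 14 without DBP100 replicate 6 or 7. The causes were not tested. The replicate block is given for completeness, since the check of the numbers did not pair the arrays, and 0 of 7 arrays correlated best with their own number.

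The interaction count of 5 became 10 with no background correction, 13 with the authors' values and 1 with no filter, and 0 to 16 when 1 array was left out. Within array set 2 the dose difference changed sign for Rnase12 (-0.0595), Mup4l3 (-0.24), Nts (-0.22), Avp (-0.29), Sectm1b (-0.0319), Trps1 (0.53), Hhip (1.15), Klf13 (0.62), Nfix (0.97), Srsf11 (0.14), Fbn2 (0.20), Wdfy1 (0.60), Cmip (0.48), Kdsr (0.49) and Klf9 (0.43). With array weights Hhip (0.35) and Nfix (0.0048) changed sign. Over the analyses with 1 array left out Rnase12 ranged from -0.0788 to 0.20, Hhip from -0.37 to 0.0562 (without DBP500 replicate 3) and Car2 from -0.0925 (without DBP100 replicate 5) to 0.36. Of 1160 list medians under alternatives 18 moved by more than the spread between litters. Probes near background are limited by signal: 4 of 7 high-dose arrays detected Prkci and Cpm.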
